A study of Mus musculus with 123 samples.

Results

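The genes described here encode the motile cilium and its axoneme, the microtubule scaffold that carries the ciliary motor. They were taken by symbol from the annotation of the array: Foxj1, and every gene whose symbol starts with Dnah, Dnai, Dnaaf, Cfap, Rsph, Tekt or Drc, or with Ift and a digit. The rule found 61 of the 13053 genes with a probe set of a single symbol, and each gene was read from its probe set with the highest mean. The members comprised Foxj1, 8 dynein heavy chains, 2 dynein intermediate chains (under their older symbols Dnaic1 and Dnaic2), 4 dynein assembly factors, 4 radial spoke proteins, 2 subunits of the dynein regulatory complex, 22 cilia and flagella associated proteins, 4 tektins and 14 intraflagellar transport proteins. A probe set shared by 2 radial spoke genes has no single symbol and was not used.

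The study followed a mouse model of asthma in which BALB/c mice sensitized to ovalbumin (OVA) were compared with naive mice after an allergen challenge. RNA of the lung was hybridised to Affymetrix arrays, 1 per mouse, from 61 naive and 62 sensitized mice killed at 0, 2, 6, 24, 48, 72, 96 or 168 h. The design states that both arms were challenged with OVA, whereas the titles of the naive samples carry PBS, so what the naive mice received is not settled here. Each of the 16 groups of arm and time held 6 to 8 mice; the sensitized group at 24 h had 6, the naive groups at 2, 48 and 96 h had 7, and the others had 8. All mice shared the strain and the tissue, and what 0 h means relative to the challenge is not stated further.

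Motile cilia beat on the multiciliated cells that line the airways and move mucus. Their axoneme is a ring of microtubule doublets: dynein heavy and intermediate chains form the arms that bend it, radial spokes and the dynein regulatory complex control the arms, tektins lie in the doublet wall, and assembly factors prepare dynein in the cytoplasm. Foxj1 is the forkhead transcription factor that switches on the motile cilium programme, and intraflagellar transport builds motile as well as immotile primary cilia, so its genes are used by many cell types of the lung.

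RFX transcription factors, which act with Foxj1 at ciliary genes, bind a palindrome called the X-box. RefSeq promoters (build GRCm38.p6, 250 bases before to 50 after the start site) were found for 49 of the 61 members, giving 55 promoters. The X-box half-site GTTGCC, searched on both strands, was present in 19 of the 55 (34.5%) against 12.5% of all 32851 promoters of that length. The full X-box, a palindrome of such half-sites in which some letters are free, was present in 2 of 55 (3.64%), those of Cfap20dc and Cfap298, against 0.451% of all promoters. The forkhead core TGTTTAC was present in 2 of 55 (3.64%) against 3.65%. Base composition was not matched in these shares, and a match describes letters and not a bound site. The 250 bases before the start site are printed for Drc1, Tekt1, Dnaic2 and Ift140, 4 members higher at 96 h that hold the half-site. They are also printed for Dnah1, which was higher and has no match, and for Cfap298, which holds the full palindrome. Each reads 5′ to 3′ on the gene's strand, with half-sites and full X-boxes in capitals. Drc1 lies at chr5:30281143-30281392 (forward strand), Tekt1 at chr11:72361883-72362132 (reverse strand), Dnaic2 at chr11:114727169-114727418 (forward strand), Ift140 at chr17:25015836-25016085 (forward strand), Dnah1 at chr14:31323897-31324146 (reverse strand) and Cfap298 at chr16:90934850-90935099 (reverse strand).
Drc1: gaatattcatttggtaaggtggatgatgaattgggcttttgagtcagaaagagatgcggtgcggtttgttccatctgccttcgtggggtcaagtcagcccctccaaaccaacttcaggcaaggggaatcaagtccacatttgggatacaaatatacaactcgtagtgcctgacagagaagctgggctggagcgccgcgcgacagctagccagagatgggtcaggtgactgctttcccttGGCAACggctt
Tekt1: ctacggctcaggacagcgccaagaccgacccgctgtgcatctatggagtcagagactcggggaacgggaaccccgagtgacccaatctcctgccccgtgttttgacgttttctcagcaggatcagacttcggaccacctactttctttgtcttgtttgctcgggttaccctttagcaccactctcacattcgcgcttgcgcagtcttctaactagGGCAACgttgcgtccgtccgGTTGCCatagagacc
Dnaic2: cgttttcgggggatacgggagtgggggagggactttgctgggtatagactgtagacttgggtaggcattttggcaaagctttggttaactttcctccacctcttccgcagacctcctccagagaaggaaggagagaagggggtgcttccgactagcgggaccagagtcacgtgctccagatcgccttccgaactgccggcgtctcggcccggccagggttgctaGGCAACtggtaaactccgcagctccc
Ift140: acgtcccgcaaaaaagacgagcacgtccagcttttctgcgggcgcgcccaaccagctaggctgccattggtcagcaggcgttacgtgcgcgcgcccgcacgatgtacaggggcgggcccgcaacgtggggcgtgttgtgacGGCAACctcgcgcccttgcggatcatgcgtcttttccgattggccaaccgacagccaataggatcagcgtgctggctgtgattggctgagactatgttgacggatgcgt
Dnah1: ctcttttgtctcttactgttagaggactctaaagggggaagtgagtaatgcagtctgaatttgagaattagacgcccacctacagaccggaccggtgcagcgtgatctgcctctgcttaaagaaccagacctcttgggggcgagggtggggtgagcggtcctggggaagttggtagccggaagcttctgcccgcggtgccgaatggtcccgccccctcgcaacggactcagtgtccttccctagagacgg
Cfap298: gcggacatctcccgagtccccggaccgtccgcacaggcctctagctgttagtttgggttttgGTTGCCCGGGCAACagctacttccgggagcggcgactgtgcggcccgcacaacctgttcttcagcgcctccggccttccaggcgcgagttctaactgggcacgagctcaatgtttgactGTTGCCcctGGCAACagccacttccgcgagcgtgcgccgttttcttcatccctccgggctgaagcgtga

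In Drc1 and Dnaic2 the half-site begins 11 and 26 bases before the start site, in Ift140 109 bases before it, and in Tekt1 there are matches at 35 and 15 bases. In Cfap298 the full palindrome begins 188 bases before the start site, and a further pair of half-sites begins at 69 and 60 bases. Among the 18 members with a half-site, 9 were higher and 1 was lower in sensitized mice at 96 h, with a median log2 difference of 0.16. Among the 31 members with a promoter and no half-site, 22 were higher and 2 lower, with a median of 0.47. The median was thus lower in the members with the half-site. Foxj1, Rsph1, Cfap65 and Dnaaf1 are among the 12 members with no entry in the promoter table.

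A set of 7 arrays carried high signals of squamous epithelium genes (a mean log2 signal of at least 8 over 12 genes): naive replicates 1 and 3 at 0 h, 1 and 8 at 6 h and 8 at 24 h, and sensitized replicates 7 at 6 h and 8 at 48 h. Skeletal muscle genes had a mean of at least 8 in 6 of these arrays (6.73 in sensitized replicate 7 at 6 h) and in 3 others, naive replicate 2 at 2 h (12.02), sensitized replicate 3 at 6 h (9.17) and sensitized replicate 6 at 2 h (8.28). No group at 72, 96 or 168 h held such an array, and neither squamous nor skeletal muscle genes passed the test there in the fit of all arrays. That fit shares 1 estimate of the spread per gene over all groups, the 7 arrays included. Without these 7 arrays, 2 squamous genes were higher and 1 lower at 72 h, and 1 was higher at 96 h. Of the skeletal muscle genes 1 was higher at 72 h in that refit. Array medians ran from 10.03 to 10.18. Deposited values are log2 signals, and a difference is sensitized minus naive, on the log2 scale, with the standard error of a limma fit over all 16 groups. A member is called higher or lower when its Benjamini-Hochberg adjusted p, over the 13053 genes at that time, is under 0.05. In whole lung, fewer cells of a type and less RNA per cell cannot be told apart.

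Most axonemal members were higher in sensitized lungs late after challenge, with the largest count at 96 h. At that time 39 members were higher and 3 lower, against 21.2% of all genes higher and 20.8% lower (42.0% called in either direction). The members' median difference was 0.38, and that over all genes was 0.00. At 48 h, 24 members were higher and 5 lower (17.0% and 18.1% of all genes, 35.1% together), with a median of 0.19. At 72 h, 29 were higher and 4 lower (22.2% and 26.3% of all genes, 48.5% together), with a median of 0.21. The late rise was carried by the same genes: all 29 members higher at 72 h were higher at 96 h, as were 22 of the 24 at 48 h, the others being Cfap52 and Dnaaf2. At 168 h, 14 members were higher and 1 lower, when 3.40% and 1.41% of all genes were, 4.81% together. Of these 14, 13 had been higher at 96 h, and the member median was 0.21 against 0.01 over all genes. The actin 3′ to 5′ signal difference, a measure of RNA quality, also differed between the arms at 168 h (by 0.29), and its part in these calls was not tested.

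Earlier median differences of the members were smaller. Called members were all higher at 0 h and went both ways at 6 and 24 h. At 0 h, 11 members were higher and none lower (14.2% and 12.3% of all genes, 26.5% together), with a median of 0.12; without the 7 arrays high in squamous genes this count was 3 (Cfap410, Dnah8 and Rsph1). At 2 h no member passed the limma test (1.84% of all genes higher and 1.92% lower, 3.76% in either direction), and 1 had an unadjusted p under 0.05; a fit with array weights called 2 and a fit of the 2 groups alone called 1. At 6 h, 5 members were higher and 12 lower (24.6% and 33.2% of all genes, 57.8% together), and at 24 h 5 were higher and 7 lower (22.8% and 24.9%, 47.7% together). The member medians at 6 and 24 h, -0.05 and -0.02, were close to those of all genes, -0.04 and -0.02, and the actin 3′ to 5′ difference moved with the arm at both times (-0.18 and -0.13).

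**Figure D1:**
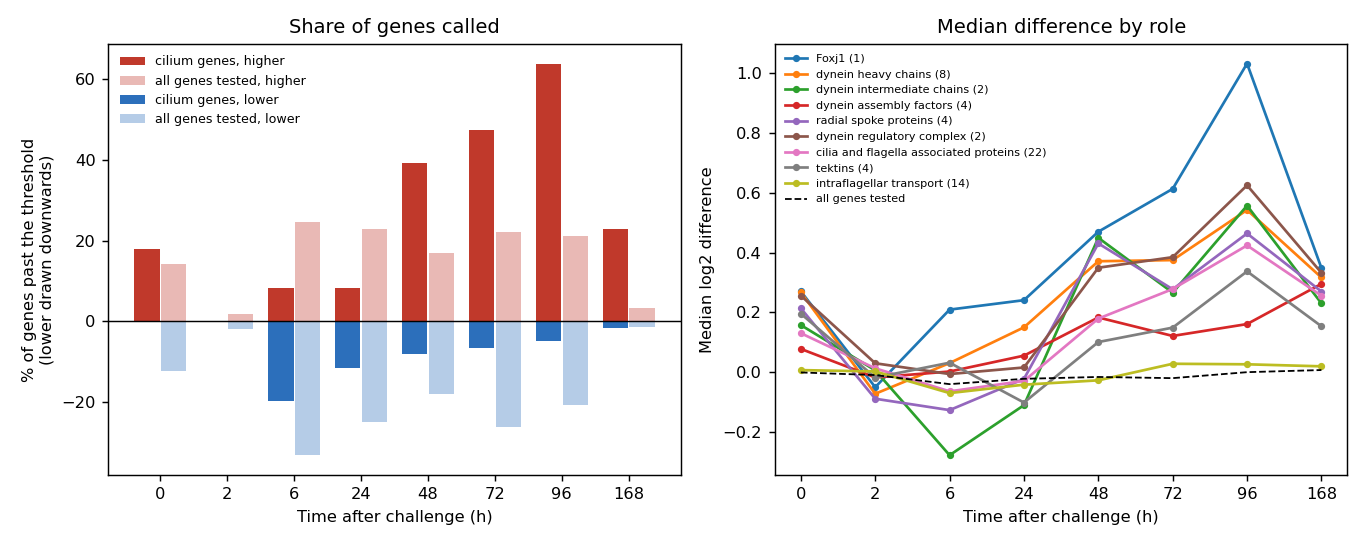
Left, percent of the 61 cilium genes (dark bars) and of all 13053 genes (pale bars) past the threshold at each time in hours, with genes higher in sensitized mice drawn upwards and lower ones downwards. Right, median log2 difference of each role by time, with the number of genes in brackets and all genes as a dashed line; times are evenly spaced and not to scale, and each role but intraflagellar transport, which lies below all genes at 48 h, stands above all genes from 48 to 168 h.

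Across all 8 times, 41 members were higher at 1 or more times and lower at none, 12 were lower only, 5 were each at different times, and Dnah5, Ift22 and Ift80 were called at none. The difference was highest at 96 h in 32 of the 61 members. Signals of sensitized mice changed over time in 57 members by the moderated F test (87.8% of all genes), and those of naive mice in 14 (38.4% of all genes). The time courses of the arms differed in 41 members (62.5% of all genes), a share of members close to the background. The smallest adjusted p of that interaction belonged to Ift140 (1.6e-07), Rsph1 (2.49e-05), Ift81 (4.2e-05), Dnah1 (6.06e-05) and Ift122 (7.15e-05). In naive mice the smallest were those of Cfap36 (6.2e-11), Dnaaf2 (6.06e-08) and Ift20 (1.17e-05). Their differences at 96 h were -0.05 ± 0.04, 0.04 ± 0.06 and 0.02 ± 0.05 (SE), which did not pass the test.

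**Figure D2:**
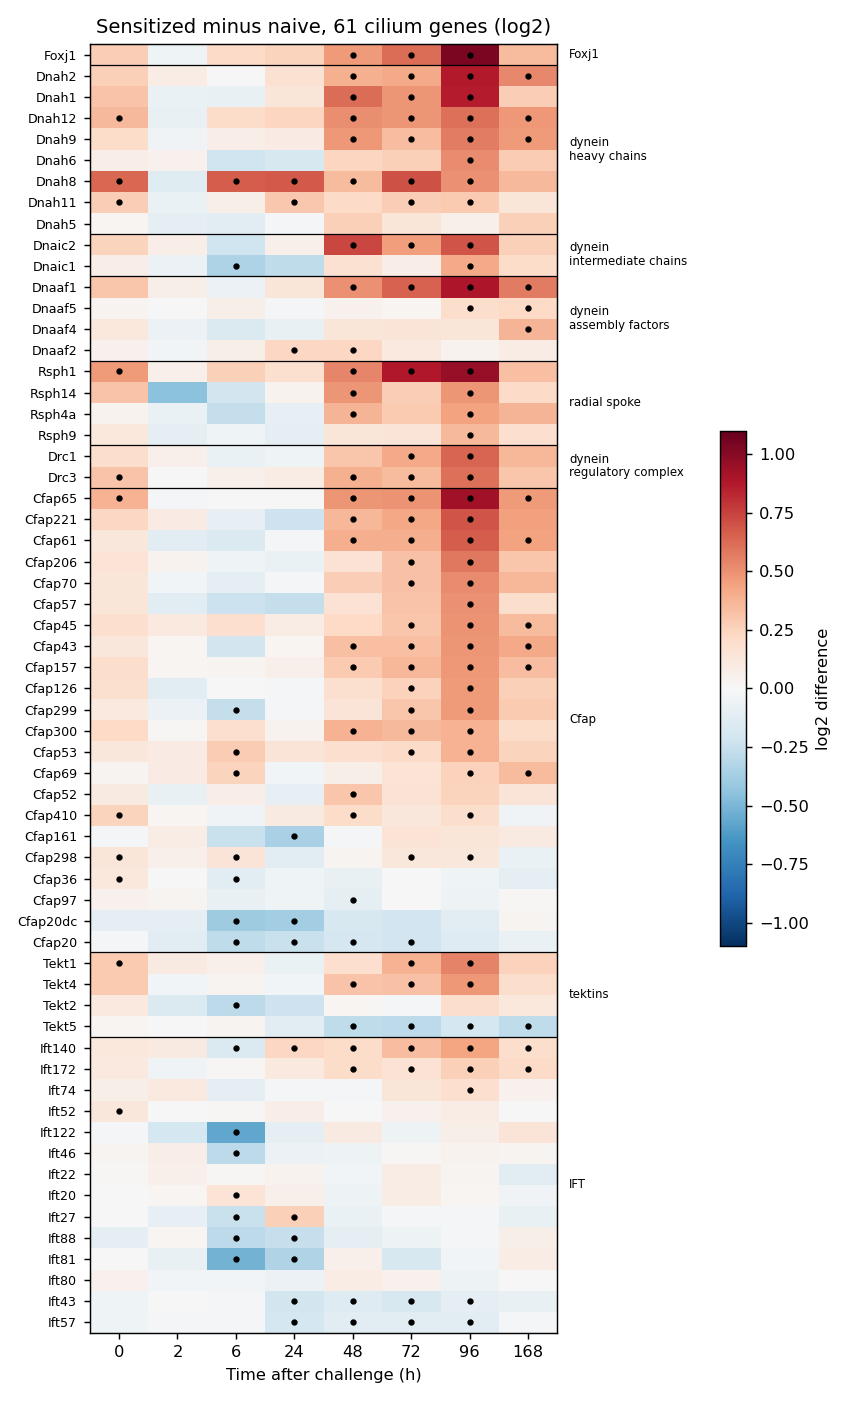
Log2 difference, sensitized minus naive, of the 61 genes (rows, grouped by role and ordered by the difference at 96 h) at the 8 times in hours (columns). Red is higher and blue lower in sensitized mice, and a dot marks an adjusted p under 0.05; the axonemal roles turn red from 48 to 96 h, while most intraflagellar transport genes stay pale.

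Foxj1, a transcription factor of the programme, had the largest difference of the members at 96 h. Its log2 signal ran from 7.98 to 9.45 (median 8.61) in the 7 naive mice and from 8.92 to 10.38 (median 9.63) in the 8 sensitized mice. The ranges overlapped through the highest naive mouse. The difference was 1.03 ± 0.16 (SE), a ratio of 2.04, with an adjusted p of 1.62e-07. At 48 h it was 0.47 ± 0.16 (adjusted p = 0.0176) and at 72 h 0.61 ± 0.16 (adjusted p = 0.000662). Before 48 h the difference was at most 0.27 and did not pass the test. By 168 h it was 0.35 ± 0.16, with an adjusted p of 0.189, and naive values spread from 8.12 to 9.70.

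Dynein heavy chains, the motors of the arms, were higher in 7 of 8 genes at 96 h, in 6 at 72 h and in 5 at 48 h. Dnah1 ran from 7.61 to 8.62 (median 8.34) in naive and from 8.52 to 9.64 (median 9.01) in sensitized mice at 96 h. Dnah2 ran from 8.08 to 8.85 (median 8.55) and from 8.80 to 9.95 (median 9.38). In both genes only the edges of the ranges met. Their differences were 0.87 ± 0.14 (adjusted p = 2.33e-07) and 0.87 ± 0.14 (adjusted p = 1.35e-07). Dnah2 and Dnah12 remained higher at 168 h, by 0.53 ± 0.13 and 0.47 ± 0.13 (adjusted p = 0.00694 and 0.0122). Dnah11 was higher by 0.29 ± 0.09 at 24 h and by 0.29 ± 0.09 at 96 h. Dnah5, one of the members with the lowest mean signal, differed by 0.06 ± 0.15 at 96 h and was not called.

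Dnah8, another heavy chain, was called early as well as late. It was higher at each time but 2 and 168 h, by between 0.35 and 0.70. At 0 h naive mice ran from 8.64 to 9.07 (median 8.86) and sensitized mice from 9.12 to 10.08 (median 9.29). Every sensitized mouse stood above every naive mouse then, which held for 1.98% of all genes. At 24 h it was also above in every mouse, with naive values from 8.53 to 9.14 and sensitized ones from 9.24 to 9.72, a separation seen in 13.0% of all genes. The difference at 6 h, 0.67 ± 0.13 (adjusted p = 1.06e-05), was the highest of the members, and at 0 h, 0.63 ± 0.13, it was too.

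The intermediate chains Dnaic1 and Dnaic2, which anchor the outer arm, were higher at 96 h by 0.42 ± 0.13 and 0.69 ± 0.20 (adjusted p = 0.0068 and 0.00333). Dnaic2 was already higher at 48 h, by 0.73 ± 0.20 (adjusted p = 0.00268), the largest difference of the members at that time. Its naive values ran from 5.47 to 6.30 (median 5.85) and its sensitized values from 5.94 to 7.30 (median 6.71), so the ranges overlapped. Dnaic2 has the lowest mean signal of the members. Dnaic1 was lower at 6 h, by 0.34 on the log2 scale (-0.34 ± 0.13, adjusted p = 0.0185); without the 7 arrays high in squamous genes this was -0.26 with an adjusted p of 0.117 in limma, and without naive replicate 1 alone -0.27 with an adjusted p of 0.0688.

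Among the assembly factors, which fold and load dynein before it enters the cilium, Dnaaf1 had the largest difference at 96 h. At 96 h its values ran from 7.46 to 8.39 (median 7.97) in naive and from 8.14 to 9.57 (median 8.90) in sensitized mice. The ranges overlapped between 8.14 and 8.39, and the difference was 0.89 ± 0.14 (adjusted p = 3.39e-07). Dnaaf1 had been higher by 0.50 ± 0.14 at 48 h and by 0.64 ± 0.14 at 72 h. Its 0.57 ± 0.14 at 168 h (adjusted p = 0.00582) was the highest of the members then. Dnaaf5 was higher by 0.19 ± 0.06 at 96 h and 0.22 ± 0.06 at 168 h. Dnaaf2 was higher at 24 and 48 h, by 0.23 ± 0.06 each time.

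All 4 radial spoke genes were higher at 96 h. Rsph1, a protein of the spoke head, ran from 9.16 to 10.14 (median 9.75) in naive and from 10.17 to 11.27 (median 10.75) in sensitized mice. No sensitized mouse overlapped a naive one at 96 h, and the same held at 72 h, where naive values ended at 10.30 and sensitized values began at 10.35. Such a separation was seen in 6.13% of all genes at 96 h and in 6.92% at 72 h. The differences were 0.96 ± 0.13 (adjusted p = 2.14e-09) and 0.88 ± 0.13 (adjusted p = 5.14e-09). At 48 h Rsph1 was higher by 0.54 ± 0.13 and at 0 h by 0.47 ± 0.13 (adjusted p = 0.00348). Without the 7 arrays named above, the difference at 0 h was 0.39. Rsph14 was higher by 0.49 ± 0.16 at both 48 and 96 h. No radial spoke gene was called at 168 h, when their median difference was 0.27.

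The regulatory complex subunits Drc1 and Drc3 link neighbouring doublets and adjust the dyneins. Both were higher at 96 h, by 0.64 ± 0.13 and 0.61 ± 0.13 (adjusted p = 3.48e-05 and 5.3e-05), and at 72 h by 0.42 ± 0.13 and 0.35 ± 0.12. Drc1 ran from 8.92 to 9.76 (median 9.47) in naive and from 9.53 to 10.63 (median 10.01) in sensitized mice at 96 h. The upper naive mice reached into the lower sensitized ones.

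Of the 22 Cfap genes, a naming family of cilium proteins with mixed roles, 16 were higher at 96 h and none was lower. Cfap65 ran from 9.43 to 10.42 (median 10.13) in naive and from 10.34 to 11.52 (median 10.90) in sensitized mice. The ranges met between 10.34 and 10.42, and the difference was 0.92 ± 0.14 (adjusted p = 8.05e-08), followed by 0.47 ± 0.14 at 168 h (adjusted p = 0.0259). Cfap221, a protein of the central pair apparatus, was higher by 0.69 ± 0.15 at 96 h. Cfap53 and Cfap69 were higher both at 6 h, by 0.28 ± 0.09 and 0.25 ± 0.08, and at 96 h, by 0.38 ± 0.09 and 0.25 ± 0.09. A dimmer probe set of Cfap69 differed by 0.24 at 6 h but by -0.09 at 96 h. At 168 h it differed by 0.09, against 0.35 for the probe set used. Cfap20 and Cfap20dc went the other way at 6 h, with differences of -0.28 ± 0.06 and -0.39 ± 0.10 (adjusted p = 4.41e-05 and 0.000436), and both were lower at 24 h as well. Cfap161 was lower at 24 h (-0.35 ± 0.15, adjusted p = 0.0392), where all sensitized mice lay below all naive mice, as in 9.11% of all genes. Cfap298 was higher by 0.13 ± 0.05 at 96 h from the probe set used, and its mean over 4 probe sets differed by -0.02.

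Tektins, filament proteins of the doublet wall, split. Tekt1 and Tekt4 were higher at 96 h by 0.54 ± 0.12 and 0.48 ± 0.13 (adjusted p = 9.92e-05 and 0.00117). Tekt5 was lower at 48, 72, 96 and 168 h, with differences of -0.28, -0.28, -0.19 and -0.28, each with an SE of 0.08. At 72 h its values ran from 7.55 to 7.78 (median 7.65) in naive and from 7.16 to 7.47 (median 7.41) in sensitized mice. The groups did not overlap there, which was the case in this direction for 8.17% of all genes.

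The intraflagellar transport genes gave other counts than the axonemal ones. At 96 h 3 of 14 were higher (Ift140, Ift172 and Ift74), 2 were lower (Ift43 and Ift57) and 9 were not called, with a median difference of 0.03. Of all genes 21.2% were higher and 20.8% lower at that time, so these few calls do not set the transport genes apart from all genes. At 6 h 1 was higher and 6 were lower (24.6% and 33.2% of all genes), and at 24 h 2 were higher and 4 lower (22.8% and 24.9%). Ift140, a subunit of the complex that returns cargo to the cell body, was higher from 24 h to 168 h. At 6 h it was called lower (-0.16 ± 0.06), a call not made without the 7 arrays high in squamous genes (-0.12, limma adjusted p = 0.109) nor in 3 of the 16 refits that each leave out 1 mouse. At 96 h it ran from 11.12 to 11.34 (median 11.22) in naive and from 11.41 to 11.83 (median 11.64) in sensitized mice, with no overlap. The difference was 0.43 ± 0.06 (adjusted p = 3.77e-09). Such a separation held for 6.13% of all genes at 96 h. Ift140 also separated the arms at 24 and 72 h, as did 13.0% and 6.92% of all genes. At 168 h it was the 1 member to do so, where 0.383% of all genes did. Ift172, a subunit of the outward complex, was higher by 0.26 ± 0.06 at 96 h and by 0.21 ± 0.06 at 168 h.

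Other subunits fell. Ift122 ran from 9.09 to 9.57 (median 9.19) in naive and from 8.18 to 9.27 (median 8.53) in sensitized mice at 6 h. Of the 8 sensitized mice 6 lay under every naive mouse, and the difference was -0.57 ± 0.09 (adjusted p = 1.7e-07). Ift81, which carries tubulin, differed by -0.52 ± 0.08 at 6 h (adjusted p = 8.75e-08) and by -0.33 ± 0.09 at 24 h. Ift43 had small differences of one sign at 24, 48, 72 and 96 h (-0.21, -0.14, -0.18 and -0.11, each with an SE of 0.04). At 72 h it ran from 12.17 to 12.35 (median 12.19) in naive and from 11.97 to 12.16 (median 12.04) in sensitized mice. The groups only just stood apart, with the lowest naive mouse at 12.168 and the highest sensitized mouse at 12.165. A separation in this direction was seen in 8.17% of all genes at 72 h. Ift57 was also lower at 24, 48, 72 and 96 h. At 48 h every sensitized mouse lay below every naive mouse in both genes, as in 4.04% of all genes. Ift20 was higher at 6 h, by 0.15 ± 0.04. Ift27 was called higher at 24 h, by 0.27 ± 0.09, on 1 of its 3 probe sets, with 1 sensitized mouse at 12.63 and a sensitized median of 11.23; its other probe sets differed by -0.01 and -0.0042.

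**Figure D3:**
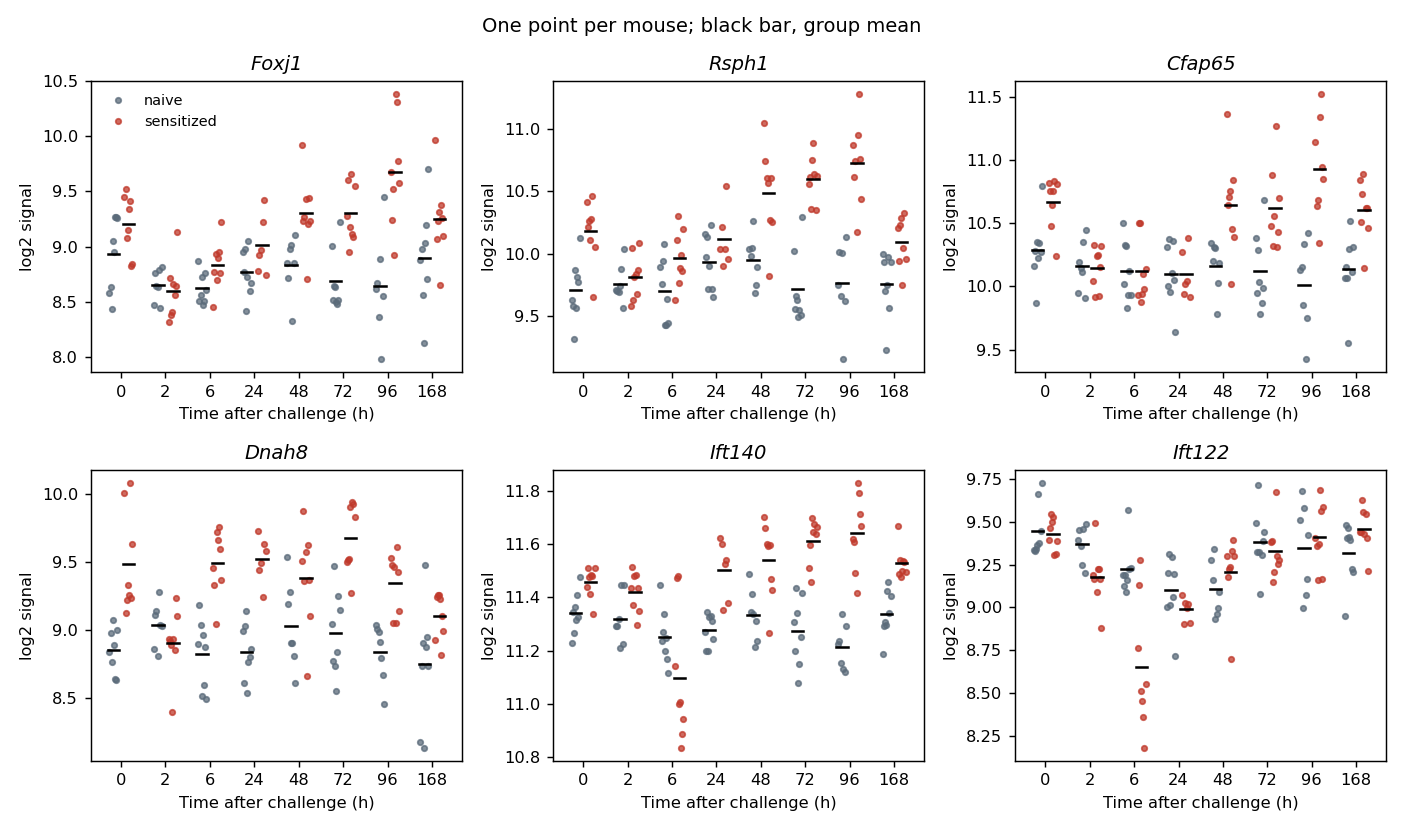
Log2 signal of 6 genes in each mouse (points; grey naive, red sensitized) by time in hours, with group means as black bars. The means of Foxj1, Rsph1 and Cfap65 lie farthest apart at 96 h, Dnah8 does not overlap at 0, 24 and 96 h nor Ift140 at 24, 72, 96 and 168 h, and Ift122 is low in sensitized mice at 6 h.

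At 6 h the sensitized mice were uneven. Replicates 2 and 3 had Ift122 at 9.13 and 9.27, and the other 6 lay between 8.18 and 8.76. The mean over the 61 members was 9.63 and 9.68 in these 2 mice and at most 9.39 in the others, while naive mice ran from 9.30 to 9.58. Array weights estimated by limma were lowest in this group for these 2 arrays, 0.137 and 0.0997, and replicate 3 was also the array high in skeletal muscle genes; the part of either in the calls was not tested. The weighted fit called 26 members at 6 h, 6 higher and 20 lower; at 24 h it called 15 lower members in place of 7. The actin 3′ to 5′ difference, tested over mice, moved with the arm at 6 h (sensitized minus naive -0.18, adjusted p = 0.0224 over 8 times, two-sided exact permutation test), at 24 h (-0.13, adjusted p = 0.0213, exact) and at 168 h (0.29, adjusted p = 0.0319, exact). Its part in the member differences at these times was not tested. At 48, 72 and 96 h it differed by 0.02, -0.06 and -0.06, with adjusted p of 0.841, 0.382 and 0.513 in the same exact test. These are differences of arm means, and single mice varied. Among sensitized mice at 48 h, replicate 1 had the highest actin value (1.43) and the highest member mean (9.93). Replicate 5 had the lowest of both (0.84 and 9.30). At 72 h sensitized replicate 6 had the lowest of both (0.89 and 9.50). The highest actin value there was in replicate 2 (1.22) and the highest member mean in replicate 5 (9.94, actin 1.18). At 96 h the highest actin value (1.29, replicate 5) and the highest member mean (10.15, replicate 6) fell in different sensitized mice. So did the lowest actin value (0.82, replicate 7) and the lowest member mean (9.38, replicate 4, actin 0.89). A relation over mice was not tested.

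Mice of one group differed among themselves in most axonemal members together. On deviations from group means over all arrays of both arms, 28 members had a Pearson correlation of at least 0.8 with the mean of the other members, and 16 had one under 0.5. These values are a description, since the arrays share their processing and the genes were compared within the same lungs. Dnah6 (0.96), Cfap206 (0.95) and Cfap126 (0.95) were highest. Intraflagellar transport supplied none of the 28 and 8 of the 16, and Ift20 (-0.32) was lowest, followed by Tekt5 (-0.09). Of the 28, a class drawn after the values were seen, 25 were higher at 96 h with a median difference of 0.52; of the 16, 2 were higher, 2 were lower and the median was 0.00. Dnah8 was 1 of these 2, with a correlation of 0.15. The shared variation between mice was thus a trait of part of the members. A low correlation does not place a gene outside the motile cilium. Some of the 16 had little spread within groups, such as Ift43 and Cfap36 (residual SD 0.078 and 0.080).

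**Figure D4:**
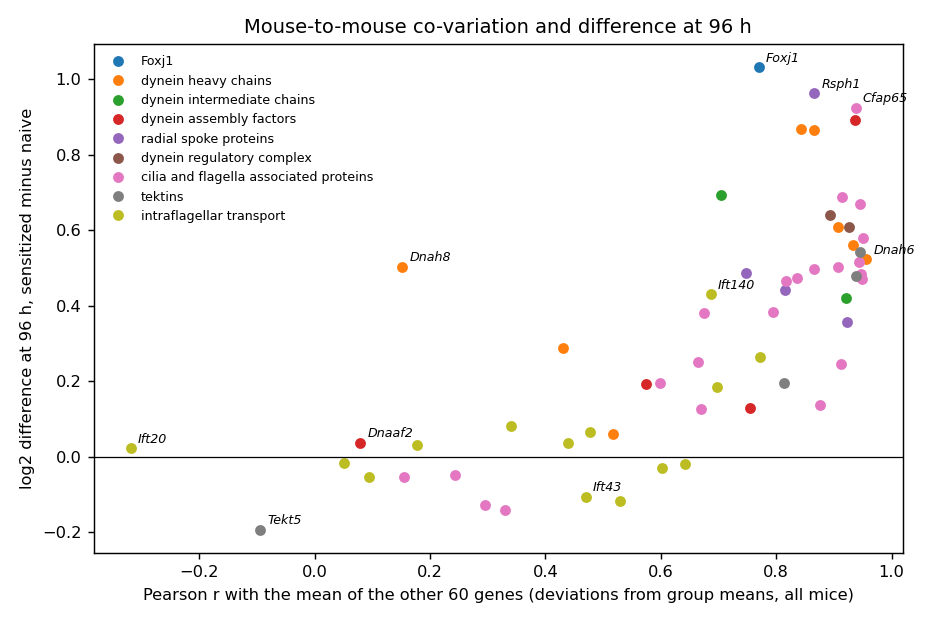
Each point is 1 of the 61 genes: Pearson correlation with the mean of the other 60 over all mice (x, on deviations from group means) against the log2 difference at 96 h (y), coloured by role. Genes at the right, mostly axonemal, have the larger differences; Dnah8 and most intraflagellar transport genes lie apart.

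The 10 genes outside the rule with the most similar mouse-to-mouse pattern were 1110017D15Rik, Lrrc36, Dynlrb2, Wdr66, Ccdc113, Ccdc153, Fam166c, 1700016K19Rik, Fam216b and Wdr63, with correlations from 0.96 to 0.93 over the same arrays. Each was higher at 96 h, by between 0.37 (Ccdc153) and 0.70 (Wdr63). At 168 h Dynlrb2 (0.35) and Wdr63 (0.55) passed the test.

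A list of 46 other motile cilium genes gave counts close to those of the members. At 96 h 31 were higher and none lower, with a median of 0.40, and at 168 h 9 were higher. Cdhr4, Ccdc40 (a ruler protein of the doublet) and Meig1 differed most at 96 h, by 0.87 ± 0.15, 0.84 ± 0.15 and 0.83 ± 0.14. At 6 h 2 were higher and 9 lower, and without the 7 arrays high in squamous genes 2 were higher and 4 lower. Among 18 further intraflagellar transport genes and motors, 1 was higher and 10 lower at 6 h, and 2 were higher and 1 lower at 96 h. Of 15 BBSome and primary cilium genes 8 were lower at 6 h, and at 96 h 2 were higher and 4 lower. Beside these lists, 24.6% of all genes were higher and 33.2% lower at 6 h, and 21.2% and 20.8% at 96 h. At 168 h 3.40% of all genes were higher.

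Several genes of the multiciliated cell's own formation were higher in sensitized mice at 0, 6 and 24 h, and others of the same list were lower at 6 and 24 h. Deup1 and Ccno serve the mass production of centrioles from which cilia grow, and Foxn4 and Myb are transcription factors of that stage. Deup1 was higher at 0 h by 1.31 ± 0.15 (adjusted p = 7e-12), at 6 h by 0.67 ± 0.15, at 24 h by 0.78 ± 0.16, at 72 h by 1.48 ± 0.15 and at 96 h by 1.32 ± 0.15. Ccno was higher at 0 h by 1.26 ± 0.12 and at 72 h by 1.28 ± 0.12, and Foxn4 at 0 h by 0.89 ± 0.09 and at 96 h by 1.04 ± 0.10. At 6 and 24 h these 3 were higher and Foxj1 was not called; the difference between these genes and Foxj1 was not tested. Rfx2, an RFX factor, was lower at both times (-0.43 ± 0.08, adjusted p = 5.05e-06, and -0.31 ± 0.09, adjusted p = 0.00237), and Rfx1 was lower at 6 h (-0.15 ± 0.07, adjusted p = 0.0489). Without the 7 arrays high in squamous genes the differences at 0 h were 1.21 for Deup1, 1.18 for Ccno and 0.85 for Foxn4. Of the 10 measured genes in this list, 6 were higher at 0 h, 5 at 6 h, 4 at 24 h, 8 at 48 h, 6 at 72 h, 7 at 96 h and 5 at 168 h; 2 were lower at 6 h, 1 at 24 h and none at the other times. Without the same 7 arrays 4 were higher and 1 lower at 6 h. At 96 h Rfx1 was higher by 0.22 ± 0.07, and Rfx2 and Rfx3 differed by -0.01 ± 0.09 and -0.03 ± 0.10. All 12 cell cycle genes measured were higher at 0 h and from 6 to 96 h and none at 168 h (8 of 12 at 6 h without the 7 arrays), and their part in the centriole genes, of which Plk4 (0.81 ± 0.11 at 96 h) also serves dividing cells, was not tested.

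**Figure D5:**
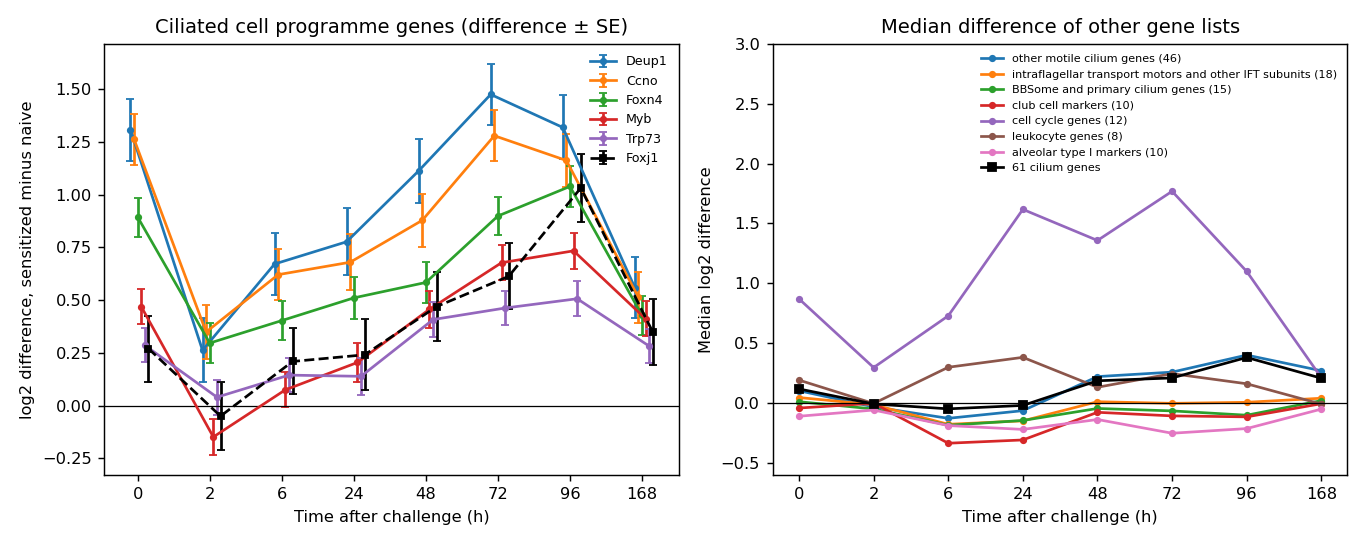
Left, log2 difference ± SE of 5 genes of multiciliated cell formation and of Foxj1 (dashed) by time in hours. Right, median log2 difference of other gene lists, with the number measured in brackets, and of the 61 cilium genes in black; Deup1, Ccno and Foxn4 pass the test at 0, 6 and 24 h, where Foxj1 does not.

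Markers of some other cells were also called at these times. Of all genes 24.6% were higher and 33.2% lower at 6 h, and 22.8% and 24.9% at 24 h. At 72 h these shares were 22.2% and 26.3%, at 96 h 21.2% and 20.8%, and at 168 h 3.40% and 1.41%. Of 15 goblet cell and mucus genes 14 were higher at 96 h and 12 at 168 h, with Clca1 higher by 8.55 ± 0.60 at 96 h. Club cell markers were lower in 7 of 10 genes at 6 h and in 8 at 24 h. At 96 h 1 of them was higher and 2 lower, neither above the share of all genes. Of 6 airway basal cell markers 1 was higher at 72 h and none at 96 h. Without the 7 arrays high in squamous genes 3 of them were higher at 72 h and 3 at 96 h. Of 9 genes of epithelia in general 5 were higher and 1 lower at 96 h, with a median of 0.15, Epcam by 0.24 ± 0.06. Of 8 leukocyte genes 3 were higher at 96 h and none at 168 h, and of 10 alveolar type I markers 9 were lower at 96 h. The list means of single mice at 96 h ran from 7.07 to 7.84 in naive and from 9.87 to 10.96 in sensitized mice for the goblet list, and from 11.00 to 11.26 and 11.23 to 11.63 for the epithelial list. Their part in the cilium gene differences was not tested.

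Single mice weighed on some counts. Leaving out each mouse at 96 h in turn gave 36 to 44 members past the threshold, and 34 of the 39 higher ones, but none of the 3 lower ones, were called in all 15 refits. Foxj1 was least in the refit without naive replicate 5, at 0.92 (adjusted p = 5.04e-06). At 48 h the count of 29 dropped to 17 without sensitized replicate 1, and 14 of the 24 higher members were called in all 15 refits. That replicate had the highest actin 3′ to 5′ difference of its group (1.43). At 72 h the 29 higher members dropped to 18 without sensitized replicate 5, and 17 of them were called in all 16 refits. The call of Foxj1 at 48 h was lost without naive replicate 5 (0.39, limma adjusted p = 0.067), that of Dnah8 at 48 h without naive replicate 7 (0.28, adjusted p = 0.12), that of Cfap161 at 24 h without sensitized replicate 2 (-0.30, adjusted p = 0.114) and that of Tekt5 at 96 h without naive replicate 4 (-0.17, adjusted p = 0.0972), to name the refit with the largest p of each. Ift140 and Tekt5 at 168 h lost theirs without naive replicate 1 (0.17 and -0.22, adjusted p = 0.103 and 0.11), and Ift27 at 24 h without sensitized replicate 2 (0.03, adjusted p = 0.746). At 168 h the count of 15 lay between 7, without naive replicate 1, and 19, and 6 of the 14 higher members (Cfap157, Cfap69, Dnaaf1, Dnah12, Dnah2 and Dnah9) were called in all 16 refits. At 0 h it lay between 4, without naive replicate 3, and 17, without sensitized replicate 7.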

How the data were processed

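The deposited values are log2 expression signals, made by the authors with RMA per the submitters' processing notes; other settings of that step are not stated in those notes. The extraction protocol in the labels states RNA integrity numbers above a minimum for all samples. The table held 25697 probe sets, of which 22478 probe sets have 1 gene symbol; 12 members have more than 1 probe set. Signals of different probe sets were not compared with each other.

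From these values limma 3.58.1 (R 4.3.3) was fitted to 16 group means with 107 residual degrees of freedom, without a filter on dim genes. Contrasts and moderated F tests (7 differences from 0 h) were adjusted by Benjamini-Hochberg over 13053 genes, at a threshold of 0.05. The fit was tested on simulated data. Labels name a separate animal for each array, and replicate numbers follow accession order and pair nothing. The number of arrays limits the precision.

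Named members were Foxj1; the up to 3 highest and 3 lowest called members of each time; the 2 largest per role at 96 h; the 5 largest interaction and 3 largest naive F; the 3 highest and lowest means; up to 3 genes per other list; and the 10 most alike genes. Other members, and the list genes Myb, Trp73, Plk4, Rfx1, Rfx2 and Rfx3, are named after their values were seen. Members and lists were chosen with earlier results of these data known. Alternatives were the mean over probe sets, centring of arrays, a minimum mean of 7, array weights, the 2 groups alone, leaving out 7 arrays and leaving out each mouse; those at 168 h and for the lists without the 7 arrays were added after seeing the data.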

Additional observations from a re-analysis of the deposited data

Results flagged for a closer look

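Of 224 sets of values looked at (14 measures in 16 groups), 10 held a mouse far from the others of its group; chance alone gives about 1 in 20. They were Cfap65 at 9.55 in naive replicate 4 at 168 h (nearest other 10.06), Dnaaf1 at 7.65 in naive replicate 5 at 48 h and at 8.24 in sensitized replicate 7 at 0 h, Dnah1 at 8.89 in naive replicate 6 at 168 h, Dnah2 at 9.76 in sensitized replicate 1 at 48 h, and Dnah8 at 8.40 in sensitized replicate 4 at 2 h. The remaining ones were Ift140 at 11.67 in sensitized replicate 1 at 168 h, and Ift122 at 9.57 in naive replicate 6 at 6 h, at 8.70 in sensitized replicate 5 at 48 h and at 9.67 in sensitized replicate 5 at 72 h.

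The time courses of the arms differed by the interaction F test in 41 of the 61 members, against 62.5% of all genes. The 5 smallest adjusted p were 1.6e-07 (Ift140), 2.49e-05 (Rsph1), 4.2e-05 (Ift81), 6.06e-05 (Dnah1) and 7.15e-05 (Ift122).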

How the results depend on the processing

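The counts of members called at 48, 72 and 96 h (both directions together) stayed within 1.5 times of the main counts under all alternatives except leaving out single mice at 48 h; of the higher ones alone, 29 at 72 h became 18 without sensitized replicate 5. At 0 h the count of 11 was 7 with centred arrays and 3 without the 7 arrays high in squamous genes. Array weights gave 2 at 2 h, 26 at 6 h, 20 at 24 h and 47 members in the naive time course (main 0, 17, 12 and 14). The 2 groups alone gave 1 at 2 h and 9 at 168 h (main 15). Leaving out each mouse in turn gave 4 to 17 at 0 h, 15 to 22 at 6 h, 10 to 14 at 24 h, 17 to 33 at 48 h, 23 to 38 at 72 h, 36 to 44 at 96 h and, added later, 7 to 19 at 168 h; it was not run at 2 h. The cause of these changes was not tested. Of the called differences of named members, 1 reversed: Cfap298 at 96 h was -0.023 as a mean over probe sets, where the dimmer probe sets count equally. No paired analysis was possible because the labels carry no replicate numbers shared between groups. Dim genes limit the data: Dnaic2, with the lowest mean, falls under a minimum mean of 7.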
